A study of Sus scrofa with 13 samples.

Results

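The spleen was compared with the other organs of the adult pig by total RNA sequencing, and the 9 libraries used were those made at 240 days after birth from Guizhou mini-pigs, a small Chinese breed. They were spleen, heart, liver, lung, kidney, testis, ovary, adipose tissue and longissimus dorsi, a back muscle, of the 13 libraries of the series. The other 4 libraries, longissimus dorsi at day 0 and day 30 and the mixtures of RNA from multiple tissues and from multiple muscle samples, stood outside the comparison. The labels name no treatment, and they do not say how many animals gave RNA to a library or whether organs came from the same animal. With testis and ovary among them, the organs came from animals of both sexes.

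Each organ was 1 library. Therefore no test between organs was possible, and no SD or p-value is given. Expression was given as RPKM, reads scaled to the length of the feature and to the total reads of the library, so that levels of different genes can be set side by side. Differences are on the log2(RPKM + 0.1) scale, on which 2 is 4-fold. The 95% intervals beside RPKM values are exact Poisson intervals of the reads and cover counting error only. Whole reads were recovered behind every value. The spleen library had 36394734 reads in its RPKM total, within the range of 21685316 (ovary) to 38581416 (testis) of the others. Of these reads 11.6% lay on listed features in spleen, the smallest share of the 9 organs, against 38.0% in ovary. RPKM values of spleen are thus set against a total of which little lay on listed features. In the lung library all 9 measured liver genes were above 0, and the summed RPKM of the list was 5.83% of that in liver, compared with 0.00979% in spleen. The source of these reads was not tested, and counts against every organ are also given without lung.

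The spleen is a filter of the blood and a lymphoid organ. Its red pulp consists of venous sinuses and cords in which macrophages take up aged red cells and keep their iron. Its white pulp holds T-cell sheaths around arterioles and B-cell follicles, and the marginal zone between them meets blood-borne antigens. A smooth muscle and collagen framework of capsule and trabeculae, prominent in pigs, surrounds these parts. In RNA of a whole organ, fewer cells of a type and less RNA per cell cannot be told apart.

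Of 21607 Ensembl genes, 15252 reached 1 RPKM in at least 1 of the 9 organs. In spleen, 95 of them (0.623%) were at least 4-fold higher than in every other organ, and 24 (0.157%) were at least 4-fold lower than in every other organ. Against the median of the other organs, 1056 genes (6.92%) were at least 4-fold higher and 928 (6.08%) were at least 4-fold lower. These shares are the background for the gene groups below, which were chosen with earlier results of these data known. The median difference of all 15252 genes to the median organ was -0.12. When RPKM was scaled to the same total over Ensembl genes, this median moved up by 0.47 (by 0.40 with RPKM over counted reads and by 0.12 with scaling by the median ratio), and the counts became 218 higher and 23 lower than every other organ, and 1942 higher and 571 lower than the median. Spleen had the largest factor of the 9 organs under that scaling (1.84), so all 95 leading genes stayed above 4-fold by construction. With scaling by the median ratio, where spleen did not have the largest factor, 91 of the 95 still led. When lung was left out, 296 genes led. By the same measure, 1541 genes led in testis, 529 in ovary, 244 in kidney, 239 in liver, 143 in lung, 106 in muscle, 78 in heart and 48 in adipose tissue.

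Of the 95 leading genes, 43 had a gene symbol and 13 were in a list. The filter of 1 RPKM was reached in spleen alone by 64 of the 95, and by 1.19% of all 15252 genes. Each of the 95 had at least 16 reads in spleen, with a median of 226, and each had a Poisson interval above the intervals of all 8 other organs. The highest reached 117 RPKM. This was ENSSSCG00000008205, which had no symbol and was at 3.14 RPKM in lung and at most 0.18 in the remaining organs. ENSSSCG00000022701, also without a symbol, had the largest difference to the highest other organ, with 30.4 RPKM in spleen, 1 read in ovary and none in the other 7 organs. Both were chosen after their values were seen. A group of 35 genes was at least 8-fold above every other organ. Of the genes with a symbol, 21 reached 5 RPKM in spleen, and 20 of them are shown in the plot of leading genes.

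**Figure D1:**
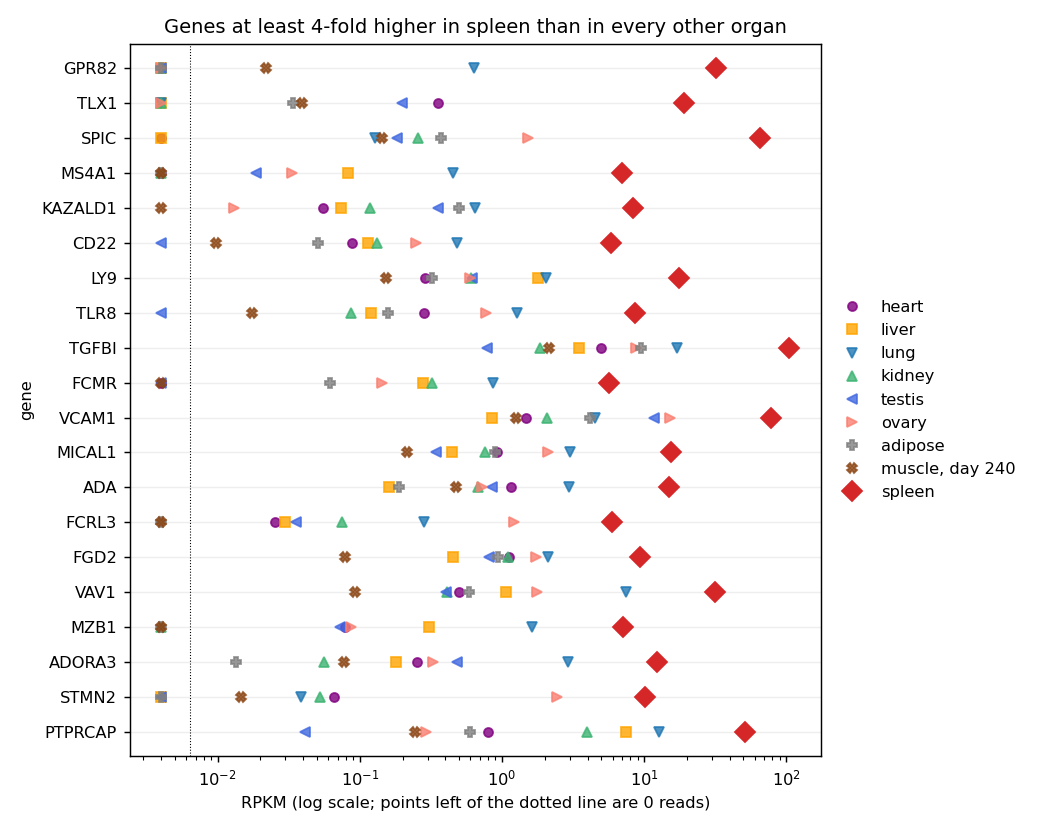
RPKM (log axis) of 20 of the 21 genes with a symbol that reached 5 RPKM in spleen and were at least 4-fold above every other organ, 1 point per organ and 1 library per point. The red diamonds of spleen stand to the right of all other organs, from 5.62 RPKM for FCMR to 105 for TGFBI, and lung is most often the next organ. Points left of the dotted line are 0 reads.

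The leading genes included transcription factors. TLX1, a homeobox factor without which the mouse spleen is lost during development, was at 19.2 RPKM in spleen (95% interval 17.7 to 20.9, 550 reads). Among the other organs it ranged from 0 to 0.354 RPKM in heart, with a median of 0.0168, a difference of 5.41 to the highest. Of the 9 libraries, spleen alone held TLX1 above 1 RPKM. SPIC, an ETS factor that red pulp macrophages need for their development, was at 64.9 RPKM (95% interval 60.9 to 69.0), whereas the others ranged from 0 to 1.52 in ovary with a median of 0.163. The difference to ovary was 5.33. NKX2-3, a homeobox factor of splenic and gut endothelium and stroma, was lower in level, with 1.41 RPKM in spleen and 0 to 0.141 elsewhere (difference 2.64). MSC (musculin), a basic helix-loop-helix repressor found in activated B cells, was at 4.64 RPKM against at most 0.215 in heart. BCL11B, a zinc finger factor of the T-cell lineage, was at 1.85 RPKM against at most 0.310 in lung. WT1, a zinc finger factor of mesothelium and gonads that the spleen needs in development, did not lead, since its 5.10 RPKM in spleen lay near 4.69 in ovary and above 2.57 in testis.

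The gene with the largest difference to the highest other organ among those with a symbol was GPR82, an orphan G protein-coupled receptor. It had 32.0 RPKM in spleen (95% interval 31.0 to 33.2, 3274 reads), and the other organs ranged from 0 to 0.636 RPKM in lung with a median of 0. In 6 of the 8 other organs no GPR82 read was counted. ADGRE3, an adhesion receptor of myeloid cells, was at 4.52 RPKM and at most 0.0837 in adipose tissue. The adenosine receptor ADORA3 was at 12.4 RPKM against 2.93 in lung (difference 2.05). Of other receptors, CHRM4, a muscarinic acetylcholine receptor, had 1.17 RPKM in spleen (58 reads) and no read in any other organ, and was at least 11.5-fold higher than the limit of 3 reads per library. The beta-3 adrenergic receptor ADRB3, which in rodents marks adipocytes, was at 1.19 RPKM (53 reads) and had no read in adipose tissue. Both of these were low, close to the filter of 1 RPKM.

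KAZALD1, a secreted protein with a Kazal-type domain, was at 8.34 RPKM in spleen and at most 0.646 in lung, with a median of 0.0955. It is the neighbour of TLX1 in the gene order of the RefSeq annotation of Sscrofa11.1. Likewise ADGRE3 and CLEC17A, a lectin of dividing B cells of germinal centres (2.93 RPKM against at most 0.218 in lung), were neighbours in that order. These were the 2 adjacent pairs among the leading genes with a symbol. No share of adjacent pairs over all genes was computed, so they are given as a description.

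Genes of B cells were high in spleen. Of the 20 B-cell genes listed, 13 had an identifier with a symbol and 10 reached 1 RPKM in an organ. Of these 10, 4 were at least 4-fold above every other organ and 8 at least 4-fold above the median, against the background of 0.623% and 6.92%. The 4 that led reached 1 RPKM in spleen alone, so that the filter admitted them through their level in spleen, and of the other 6 genes 4 were above the median by 4-fold. The median of the 10 differences to the median organ was 3.20 (3.56 with values under 3 reads set to 3 reads). MS4A1 (CD20) was at 6.96 RPKM (95% interval 6.45 to 7.49), with 0.450 in lung and a median of 0.00936 elsewhere. CD22, an inhibitory lectin of B cells, was at 5.82 against 0.482 in lung. CD79B, a signalling chain of the B-cell receptor, was at 4.81 against 0.818 in lung, a smaller difference of 2.42. In these 3 genes the 8 other organs stayed under 1 RPKM. The signalling genes BLNK, BTK and BANK1 were also highest in spleen but nearer to lung. BLNK was at 7.27 against 4.40 RPKM, BTK at 2.44 against 1.61 and BANK1 at 25.3 against 15.2. VPREB3, a surrogate light chain partner, was at 1.86 RPKM in spleen and higher in ovary (3.22).

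Fc receptor-like genes, which encode immunoglobulin-binding receptors mostly of B cells, were looked up after the values were seen. Of 7 with an identifier, 5 reached 1 RPKM in an organ, and 4 of these did so in spleen alone, so that they could only be higher there. Their values are given as a description. FCMR, the receptor of IgM, was at 5.62 RPKM (others 0 to 0.860), FCRL3 at 5.92 (0 to 1.22), FCRL1 at 3.01 (0 to 0.613) and FCRL4 at 1.41 (0 to 0.0888). Among SLAM family receptors, also looked up afterwards, all 8 measured were at least 4-fold above the median and 1 led, LY9 at 17.7 RPKM against 2.04 in lung. The family bridges lymphocytes in their contacts, and SLAMF1 was higher in testis (1.87 against 0.763 RPKM).

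VAV1, PTPRCAP, ADA, MICAL1 and FGD2, which were in no list, led too, with lung next in each. VAV1, a guanine nucleotide exchange factor of antigen receptor signalling, was at 31.4 RPKM (95% interval 30.2 to 32.5) against 7.49 in lung and a median of 0.540. PTPRCAP, a partner of the phosphatase CD45, was at 51.3 against 12.6 in lung, just over 4-fold. ADA (adenosine deaminase), whose loss causes immunodeficiency, was at 15.1 against 2.95, MICAL1, an actin oxidising enzyme, at 15.5 against 3.03, and FGD2, an exchange factor of CDC42, at 9.34 against 2.09. These 5 genes were highest in spleen by 4.06 to 5.12 times.

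Genes of antibody-secreting cells differed among themselves. Of the 6 genes of germinal centre and antibody-secreting cells that reached 1 RPKM, 1 led and 2 (4 with RPKM scaled to the same total) were at least 4-fold above the median, and the median difference was 0.05. MZB1, a chaperone of IgM assembly, was at 7.05 RPKM against 1.63 in lung and a median of 0.0757. CD38, an NAD-consuming surface enzyme of plasma cells and activated lymphocytes, was at 9.04 against 4.51 in lung. XBP1, the factor of the secretory response, was at 8.24 RPKM in spleen, near the median of 8.20 and under 22.3 in ovary. SDC1 (CD138), a plasma cell antigen that epithelia express too, was lower in spleen (0.375 RPKM) than in liver, lung, kidney and ovary (4.56 to 5.45). BCL6, the factor of germinal centre B cells, lay at 1.26 RPKM beside a median of 1.35.

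**Figure D2:**
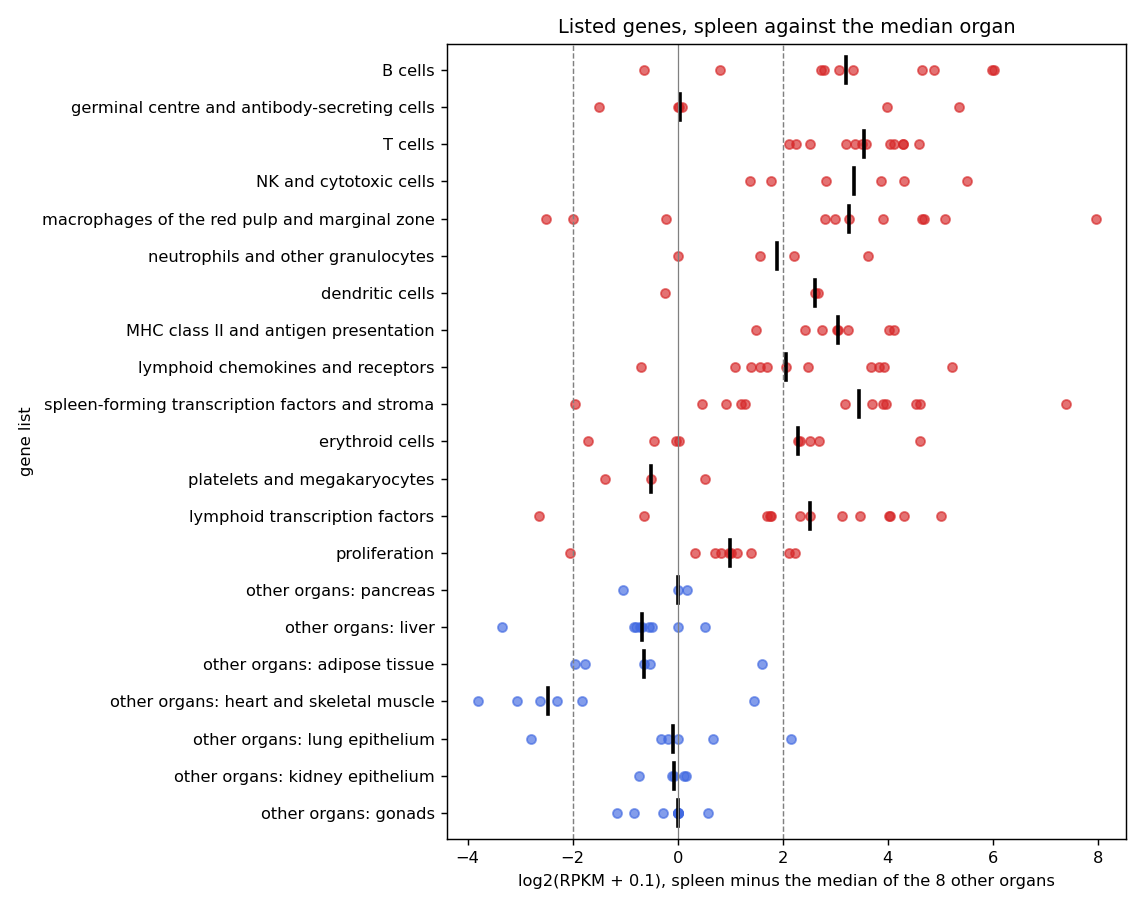
Differences between spleen and the median of the 8 other organs on the log2(RPKM + 0.1) scale for the members of 21 gene lists that reached 1 RPKM in an organ, with 1 point per gene and a bar at the median of each list. Dashed lines mark 4-fold. Lists of spleen, blood and immune cells are in red and those of other organs in blue. All 12 T-cell genes lie to the right of the upper line, and the bars of the other organs' lists lie at or below 0.

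All 12 T-cell genes that reached 1 RPKM were at least 4-fold above the median organ (background 6.92%; 6 with a pseudocount of 1), and their median difference was 3.54 (4.59 with the 3-read limit). None led by 4-fold, and lung held the highest level of the other organs for 12 of the 12. The filter was reached in spleen alone by 2 of the 12, and the other 10 were also above the median by 4-fold. CD3D, a chain of the T-cell receptor complex, was at 11.2 RPKM (95% interval 10.4 to 12.1) in spleen, 4.43 in lung and at most 1.45 in the remaining organs. LCK, the kinase of CD4 and CD8 signalling, was at 10.4 against 3.98 in lung, and CD2 was at 9.90 against 4.16. TRAT1, an adaptor of the T-cell receptor, was at 3.79 against 1.70 in lung, and TCF7 (TCF1), a factor of T-cell development, at 3.99 against 1.52 in lung. The co-receptors were low, CD4 with 1.32 RPKM in spleen and 0.725 in lung, and CD8A with 0.797 in spleen and a higher 1.22 in lung. Without lung, 8 T-cell genes were at least 4-fold above every other organ. Of 19 listed genes of NK and cytotoxic cells, 11 had an identifier with a symbol, and 3 of these had 0 reads in spleen. The 11 held 6 that reached 1 RPKM in an organ, of which 4 were above the median by 4-fold and 0 led. Of the 6, only the 4 named here were highest in spleen. TBX21 (T-bet), the factor of cytotoxic and type 1 helper cells, was at 2.97 against 2.25 in lung and a median of 0.0577, NKG7, a protein of cytotoxic granules, at 2.70 against 1.72 in lung, and IL2RB, a chain of the interleukin-2 receptor, at 1.91 against 1.07 in kidney. CD244, a receptor of NK and T cells, was at 9.84 RPKM against 2.75 in lung and at most 0.334 elsewhere.

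In macrophage genes, 2 of 11 led (SPIC and VCAM1), 8 were at least 4-fold above the median, and the median difference was 3.25 (3.62 with the 3-read limit). Of these 8, 1 reached 1 RPKM in spleen alone, so that the filter admitted it through its level there. VCAM1, an adhesion molecule of splenic macrophages and stroma, was at 77.8 RPKM (95% interval 76.0 to 79.7), whereas the others ranged from 0.855 to 15.2 in ovary with a median of 3.11. C1QA, a chain of complement C1q made by macrophages, was at 54.2 RPKM with 15.5 in lung. CD68, a lysosomal membrane protein, was at 22.4 with 9.59 in lung, and NR1H3 (LXR alpha), a nuclear receptor that marginal zone macrophages need, was at 23.6 with 12.4 in ovary. Other macrophage genes were higher in lung. MARCO, a scavenger receptor, was at 3.86 RPKM in spleen and 45.7 in lung, and TIMD4, a receptor of phosphatidylserine, at 2.86 and 6.35. MRC1, the mannose receptor, was low in spleen with 0.799 RPKM, where the others ranged from 0.794 in muscle to 14.6 in ovary, a difference of -2.51 to the median. TGFBI, an extracellular matrix protein that macrophages secrete and no member of a list, was among the most abundant leading genes, at 105 RPKM (95% interval 103 to 108) against 17.1 in lung and a median of 4.24.

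Genes of antigen presentation by MHC class II were high in both spleen and lung. Of 8, 7 were at least 4-fold above the median organ (median difference 3.04), and 7 were highest in spleen, but none by 4-fold. Of the 7 above the median, 1 reached 1 RPKM in spleen alone, so that the filter admitted it through its level there. SLA-DQB1 was at 113 RPKM in spleen and 109 in lung, and their ratio of 1.03 had a counting interval of 0.985 to 1.09. For SLA-DMB (13.4 and 12.1) and SLA-DMA (14.7 and 13.5) the interval also included 1. Class II genes are similar in sequence and variable between animals, and how reads that fit several of them were counted is not given in the sources used here. CD80, a ligand that costimulates T cells, was at 2.92 against 0.969 in lung, and CIITA, the activator of class II transcription, at 7.63 against 6.07 in lung. CTSS, a protease that prepares class II molecules for peptide, was at 151 against 81.7 in lung. Of 3 dendritic cell genes, 2 were at least 4-fold above the median and none led. Of these 2, 1 reached 1 RPKM in spleen alone, so that the filter admitted it through its level there. CD83, a marker of mature dendritic cells, was at 0.602 RPKM and higher in ovary (4.72). XCR1, the chemokine receptor of cross-presenting dendritic cells, was at 1.40 RPKM against 0.393 in lung.

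Chemokine receptors that guide lymphocytes within the white pulp led in part, with 2 of 11 genes of lymphoid chemokines and receptors above every other organ and 6 above the median by 4-fold. Of these 6, 4 reached 1 RPKM in spleen alone. CXCR5, which draws B cells into follicles, was at 3.65 RPKM and at most 0.441 in lung, with no read in 6 organs. CCR7, which draws T cells into their zone, was at 1.26 RPKM against 0.163 in lung. CCR6 (1.42 against 0.374 in lung) and GPR183 (2.18 against 0.613 in lung), a receptor of oxysterols in B cells, were under 4-fold. The ligand CCL19 was at 6.41 RPKM in spleen, but adipose tissue (5.35) and lung (4.47) were near. LTBR, the lymphotoxin beta receptor of stroma, was at 2.84 RPKM in spleen, under the median of 4.82.

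Of 13 lymphoid transcription factors, 1 led (BCL11B), 8 were at least 4-fold above the median and 1 was as far below it. In lung, 5 of the 13 were higher than in spleen. BCL11B reached 1 RPKM in spleen alone, so that the filter admitted it through its level there. IKZF3 (Aiolos) was at 11.2 RPKM with 4.44 in lung and 2.68 in testis, and SPI1 (PU.1) was at 15.3 with 9.95 in lung. LEF1 and STAT4 were higher in testis, at 11.8 and 39.4 RPKM, than in spleen (3.01 and 1.15). Toll-like receptors, looked up after the values were seen, had 5 of 7 genes at least 4-fold above the median. Of these 5, 1 reached 1 RPKM in spleen alone. TLR8, a sensor of single-stranded RNA in endosomes, led with 8.64 RPKM against 1.28 in lung. The flagellin receptor TLR5 stood lower in spleen (0.312) than in liver (2.23).

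Contractile genes of smooth muscle were abundant. Among 12 genes of spleen-forming factors and stroma, 2 led (TLX1 and NKX2-3) and 7 were at least 4-fold above the median. The 2 that led reached 1 RPKM in spleen alone, so that the filter admitted them through their level in spleen. Of the other genes of the list, 5 were above the median by 4-fold. MYH11, the smooth muscle myosin heavy chain, was at 138 RPKM in spleen, 66.0 in lung and 38.9 in ovary, with a median of 8.75. CNN1 (calponin) was at 43.2 with 11.5 in lung. ACTA2, the smooth muscle actin, was at 116 in spleen but at 205 in ovary. DES (desmin), which striated muscle also makes, was at 58.7 in spleen, 298 in heart and 515 in muscle, and at most 14.7 in the remaining organs. STMN2, a tubulin-binding protein of neurons, was a leading gene outside the lists, at 10.2 RPKM in spleen, 2.43 in ovary and at most 0.0661 in the remaining organs.

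In 9 erythroid genes, 1 led and 5 were at least 4-fold above the median. HBB (beta globin) was at 52.7 RPKM in spleen, with 36.3 in heart, 26.1 in lung and a median of 8.22. HBM, an alpha-like globin, led with 3.05 RPKM against 0.448 in lung, from 47 reads. HBM reached 1 RPKM in spleen alone, so that the filter admitted it through its level there. ALAS2, the erythroid enzyme of haem synthesis, was at 2.96 against 2.20 in lung. TFRC, the transferrin receptor, was lower in spleen (3.98) than the median organ (13.4). Of 4 granulocyte genes, 2 were above the median by 4-fold and none was highest in spleen, with S100A8 at 0.364 against 1.28 in lung, MMP9 at 0.415 against 1.33 in lung and CSF3R at 1.77 RPKM against 3.19 in lung. None of 3 platelet genes was above the median by 4-fold. Of 10 proliferation genes, 2 were (MCM5 at 1.29 and PLK1 at 1.33 RPKM), 1 was as far below, CCNB2 at 0.300, and all 10 were higher in testis than in spleen.

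Over the 14 lists of spleen, blood and immune cells, 115 distinct genes reached 1 RPKM. Of them 71 (61.7%) were at least 4-fold above the median organ, against 6.92% of all genes, and 13 (11.3%) led, against 0.623%. A further 3 of the 115 were at least 4-fold below the median organ, as were 6.08% of all genes. The lists were chosen with earlier results of these data known, so these shares are a description and no independent support. The filter was reached in spleen alone by 17 of the 115, among them 10 of the 13 that led, and these could only be higher in spleen. Lung was the highest other organ for 57 of the 115 (49.6%), compared with 11.1% of all tested Ensembl genes with a read in another organ and 59.9% of the 846 of these that were highest in spleen. With a pseudocount of 1, which gives less weight to low values, 35 of the listed genes were above the median by 4-fold, among them 6 of the T-cell, 5 of the macrophage, 3 of the lymphoid transcription factor, 1 each of the chemokine, NK cell and erythroid genes, and none of the dendritic cell, granulocyte or proliferation genes. Of the lists looked up after the values were seen, 1 Toll-like receptor gene and 2 Fc receptor-like genes were above it with that pseudocount. Relative to the median of all genes, the list medians lay between 2.41 and 3.71 for B cells, 1.90 and 4.68 for T cells, 1.93 and 3.99 for macrophages and 2.35 and 3.43 for MHC class II over the pseudocounts, scalings and sets of organs tried. For 96 of the 258 symbols no identifier was matched, among them CD79A, CD3E and CD163, and these genes were not analysed here.

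Markers of other organs were near 0 in spleen. ALB, UMOD, SFTPC, PRM1 and PNLIP, the products of liver, kidney, lung, testis and pancreas, had 0 reads in spleen, while ALB was at 5495 RPKM in liver and at 343 in lung. The limit that 3 reads set in spleen was 0.0401 RPKM for ALB and 0.0514 for UMOD. CPA1, a pancreatic protease, had 1 read. Summed over 6 genes, heart and skeletal muscle markers were at 0.971 RPKM in spleen against 14325 in muscle, and the 6 lung epithelial genes at 0.532 against 1347 in lung. The 7 pancreatic genes had 3 reads in spleen in all. Of the 9 liver genes 2 were above 0, with TF (transferrin) at 0.727 RPKM. The listed gene of another organ that was 4-fold above the median in spleen was NAPSA, an aspartic protease of alveolar and kidney epithelium, at 0.345 RPKM in spleen and 7.13 in lung.

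Lung was the organ nearest to spleen. Of the 90 leading genes with a read in another organ, 52 (57.8%) had lung as the next organ, 17 had ovary, 7 testis, 6 kidney, 5 adipose tissue, 3 heart, and 0 liver or muscle. Among all 846 tested genes that were highest in spleen and had a read elsewhere, this share was 59.9% for lung, so the share among leading genes was near that background. The rank correlation of RPKM across the 15252 genes was highest with lung (Spearman's rho = 0.77), followed by adipose tissue (0.72), ovary (0.69), heart (0.68), kidney (0.64), muscle (0.62), liver (0.61) and testis (0.38). Genes are not independent replicates, each rho rests on 2 libraries, and genes under 1 RPKM everywhere were left out. Spleen and lung together were at least 4-fold above all 7 remaining organs in 83 genes, of which 63 were higher in spleen, and no other organ shared more than 6 such genes with spleen.

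**Figure D3:**
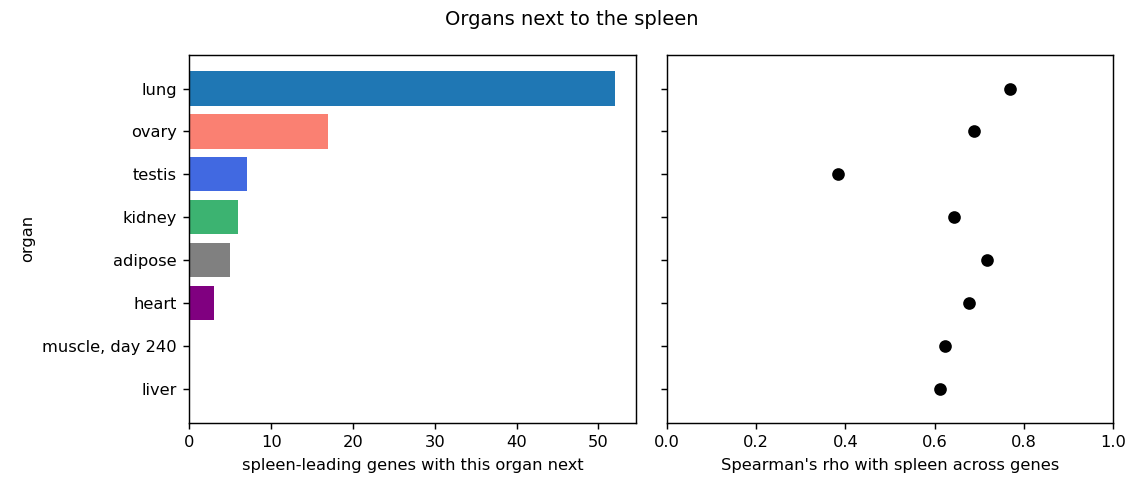
Left, number of spleen-leading Ensembl genes for which each organ held the highest RPKM of the 8 others (90 genes with a read outside spleen). Right, Spearman's rho between spleen and each organ across 15252 Ensembl genes, with 1 library per organ. Lung comes first in both, with 52 genes and a rho of 0.77, and testis has the lowest rho.

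Of the 24 genes that were at least 4-fold lower in spleen than in every other organ, 14 had a symbol. In 9 of the 24, spleen had 0 reads. FMO1, a flavin-containing monooxygenase of drug metabolism, had no read in spleen, where 3 reads would be 0.0391 RPKM. The other organs ranged from 1.11 RPKM in muscle to 254 in ovary, with a median of 23.1. PRRG1, a membrane protein with a Gla domain, was at 0.0970 RPKM (95% interval 0.0554 to 0.157) and at 2.12 to 5.15 in the others, a difference of -3.50 to the lowest. UACA, a cytoplasmic protein with ankyrin repeats, was at 0.337 and at 4.55 to 34.1 in the others. That spleen lay below the range of the other organs in all of these followed from the rule that chose them. KIF21A, a kinesin, was at 0.0526 against 1.03 to 31.9, RRAGD, a GTPase of the amino acid signal to mTORC1, at 0 against 0.601 to 7.45, and S100A1, a calcium-binding protein of muscle, at 0.0820 (1 read) against 1.05 to 50.3. MACROD1, a mitochondrial ADP-ribose hydrolase, and VEGFD, a growth factor of lymphatic vessels, had 0 reads in spleen and at least 0.566 and 0.494 RPKM in every other organ. TNNC2, troponin C of fast muscle, was at 0 in spleen and at 0.682 to 10378 RPKM elsewhere, so that all 8 other libraries held some reads of this muscle gene. Among genes without a symbol, ENSSSCG00000025277 had 0 reads in spleen and from 0.481 RPKM to 680 in ovary, and was chosen after its values were seen. The metabolic enzymes CHPT1 of phosphatidylcholine synthesis (1.67 against at least 8.21 RPKM) and HIBADH of valine breakdown (0.900 against at least 4.43) were in the same group.

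**Figure D4:**
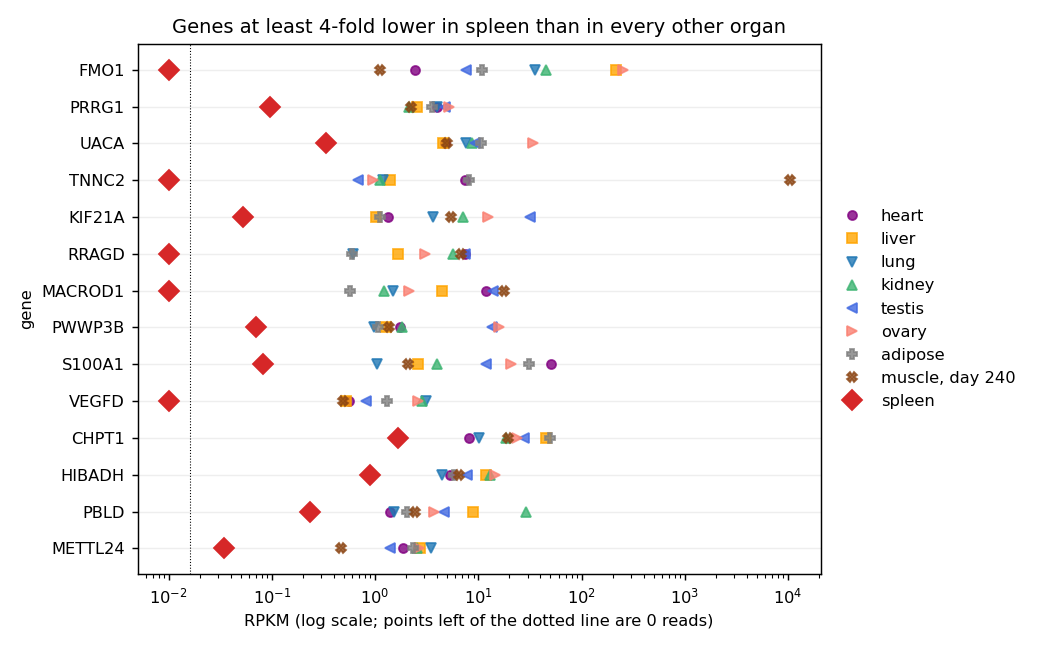
RPKM (log axis) of the 14 genes with a symbol that were at least 4-fold lower in spleen than in every other organ on the log2(RPKM + 0.1) scale, 1 point per organ and 1 library per point. The red diamonds of spleen are left of all other organs, with 5 genes at 0 reads and CHPT1 highest at 1.67 RPKM.

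Mitochondrially encoded genes of the respiratory chain were among the most abundant transcripts of spleen but low in comparison. They were looked up after the values were seen. COX1 was at 505 RPKM in spleen, 593 in liver and 630 in lung, whereas the remaining organs ranged from 1482 in testis to 6615 in heart. Of the 13 genes, 10 were at least 4-fold below the median organ (background 6.08%), with a median difference of -2.82 (-1.74 with RPKM scaled to the same total). COX3 was at 197 and ATP6 at 151, where the median organs were at 1177 and 1283. The summed RPKM of the 13 was 1585 in spleen, 1835 in liver, 2211 in lung and between 7490 and 23962 in the other 6 organs. As shares of counted reads these were 1.42% in spleen, 1.64% in liver, 1.37% in lung and 2.65% to 12.99% elsewhere. Beside them, the nuclear genes with a symbol that had the highest RPKM in spleen were TMSB10 (542 RPKM), RPLP2 (537), ACTB (386) and FTL (260), the light chain of ferritin. They were followed by TPM1 (210), TMSB4X (203) and TPM2 (173), which bind actin. ACTB was also highest in spleen of the 9 organs, whereas FTL was higher in 4 organs, up to 725 in ovary.

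The lncRNAs were the 10813 transcripts that the study assembled, and 3346 of them reached 1 RPKM in an organ. In spleen, 29 (0.867%) were at least 4-fold above every other organ and 1 (0.0299%) was at least 4-fold below every other organ. Against the median organ, 210 (6.28%) were higher and 97 (2.90%) lower by 4-fold. Most of these 3346 lncRNAs were not detected in spleen, as 2173 had 0 reads there. Over all 10813, 2573 were above 0 in spleen, within the range of 1650 (muscle at day 240) to 6472 (testis) of the other organs. By the 4-fold measure against every other organ, 1393 lncRNAs led in testis, 147 in ovary, 92 in kidney and 28 in muscle.

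The most abundant lncRNA of spleen, TCONS_00512109, was at 1173 RPKM there and at 278.5 in liver to 6380 in heart, and was chosen after its values were seen. The 29 leading lncRNAs were low in level. Their median was 2.23 RPKM, their highest 8.56 RPKM (TCONS_00392378), and their median number of reads 51. For 25 of the 29 the Poisson interval lay above those of all other organs, and 9 were above 0 in at most 3 of the 13 libraries, for which the recovered reads are the fewest that the values allow. Fewer reads thus stood behind a leading lncRNA than behind a leading gene. The next organ was testis for 7 of 25 with a read elsewhere, lung for 5, ovary for 4, and no other organ for more than 3. Of all 140 tested lncRNAs that were highest in spleen with a read elsewhere, lung was next in 37.1%, and for the leading Ensembl genes in 57.8%. The differences between these shares were not tested.

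TCONS_00619332 had the largest difference to the highest other organ, with 4.43 RPKM in spleen (95% interval 3.09 to 6.16, 35 reads), 1 read in adipose tissue (0.122 RPKM) and none in the other 7 organs. TCONS_00131547 was at 2.36 RPKM from 70 reads against 1 read in testis, a ratio of 74.2 with a counting interval of 12.9 to 2972. The interval is wide because the second library held a single read. TCONS_00279887 had 122 reads in spleen (1.35 RPKM) and none in any other organ, at least 24.2-fold above the limit of 3 reads, and TCONS_00176143 had 57 reads and was at least 11.3-fold above that limit. TCONS_00718304 (10 reads) and TCONS_00576658 (7 reads) also had no read elsewhere, but lay only 1.99-fold and 1.39-fold above it. Both were above 0 in at most 3 of the 13 libraries, so these reads are the fewest that the values allow. With these fewest reads, a lead of 4-fold could not be told from counting error for these 2, and their true reads may be more. With more reads behind them, TCONS_00185197 was at 3.43 RPKM (290 reads) with 0 to 0.263 elsewhere, and TCONS_00424119 at 7.15 with 0 to 0.623 in ovary. TCONS_00273899 was at 3.79 RPKM and had 1 read outside spleen, in heart, and TCONS_00745546 was at 1.67 with 1 read in lung.

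**Figure D5:**
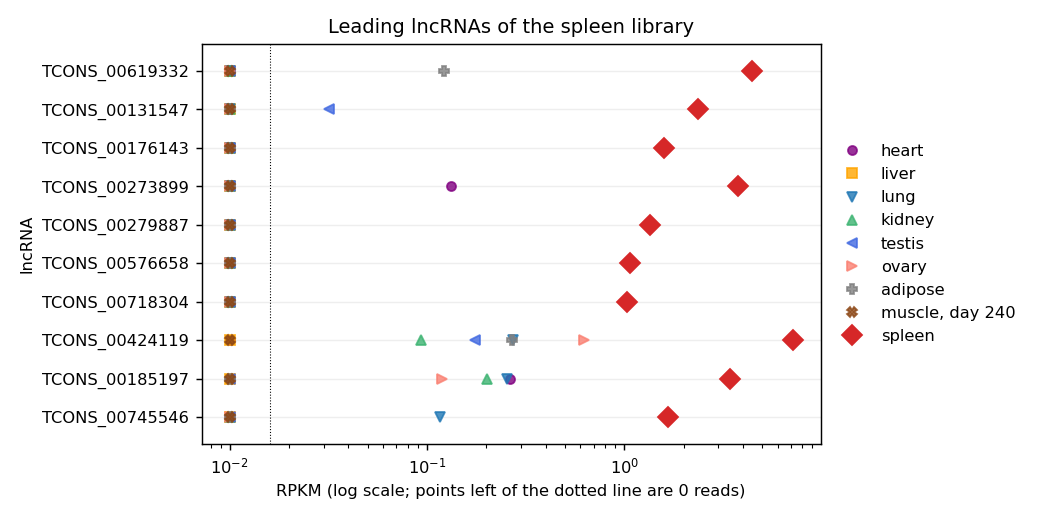
RPKM (log axis) of the 10 lncRNAs with the largest lead of spleen over every other organ, 1 point per organ and 1 library per point. Spleen lies between 1.04 and 7.15 RPKM, and most points of the other organs are at 0 reads, left of the dotted line.

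The median length of the leading lncRNAs was 502 nucleotides, beside 499 of all 3346, where the length is the smallest that gives whole reads in every library. Among the 29, 2 had a directly adjacent identifier in the catalogue, beside 30.7% of all lncRNAs listed. The difference was not tested, and in neither of the 2 did the adjacent lncRNA lead as well. No gene, position or sequence is paired with the identifiers in the files used here.

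The lncRNA lower than in every other organ was TCONS_00644974, with 0 reads in spleen, where 3 reads would be 0.248 RPKM. The other organs ranged from 1.38 in lung to 33.2 in liver, with a median of 9.14. TCONS_00821491 was also at 0 in spleen and at 0 to 7.51 elsewhere (median 2.71), and TCONS_00720268 was at 0.147 against a median of 5.01. TCONS_00689102 (0.0520 against a median of 2.44) and TCONS_00589295 (0 against 1.41) completed the 5 with the largest fall to the median, and both had 0 reads in muscle. Of the 97 lncRNAs below the median, 57 had 0 reads in spleen.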

How the data were processed

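Total RNA of 13 pig libraries was analysed, of which 9 (spleen, heart, liver, lung, kidney, testis, ovary, adipose tissue and longissimus dorsi at 240 days) formed the comparison, with 1 library each. Groups were taken from the sample labels. Per the labels, rRNA was removed and libraries kept the strand, by SMART or dUTP; which library used which is not said. The authors mapped the reads with TopHat (version 1.3.2 in the submitters' processing notes), assembled transcripts with Cufflinks, counted reads with htseq-count and deposited RPKM, 1 value per feature and library. The genome assembly of these libraries is not given in the sources used here. The 32420 features were 21607 Ensembl genes and 10813 lncRNAs.

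Since RPKM values are whole reads over a length and a total, the total of each library and the smallest length that gives whole reads were recovered from the values, for 29462 of the 29462 features above 0 (tolerance 1.2e-09 of a read). For features above 0 in 1 to 3 libraries (6767) the reads are lower bounds. This step was checked with simulated libraries. With 1 library per organ, no count test could be run on these reads. Features that reached 1 RPKM in any of the 9 organs were compared as log2(RPKM + 0.1) in spleen minus the median, the highest and the lowest of the 8 other organs, and 4-fold was the limit. Intervals are exact Poisson or, for ratios, exact binomial (Clopper-Pearson) intervals at 95%, and the limit of detection was 3 reads per library. Both cover counting error only. Symbols were available for 11654 Ensembl genes, and gene order was taken from RefSeq (Sscrofa11.1), of which no coordinates were used.

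Genes were named by rule: up to 30 with a symbol and at least 5 RPKM in spleen that led by 4-fold (21 did), the 10 with the largest fall to the lowest other organ, the 10 with the highest RPKM in spleen, the 4 members of each list with the largest difference to the median and defining markers, and for lncRNAs the 10 with the largest lead and the 5 with the largest fall to the median. Genes named by the rule in lists of other organs, platelets and proliferation are mostly given through their list. Members of the lists that help to describe them were added, and so were the remaining leading genes with a symbol. The members and lists were chosen with earlier results of these data known, and 4 lists (mitochondrially encoded proteins, SLAM family, Fc receptor-like family and Toll-like receptors) after the values were seen. Other pseudocounts, filters, fold limits, scalings and sets of organs were tried. Python 3.11.15 was used with numpy 2.4.6, pandas 2.3.3, scipy 1.17.1 and matplotlib 3.10.9. Results of 2 single genes that the rule names or a list holds are not reported here. A search for letters of transcription factor motifs in promoters was not run, because no sequences were used here.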

Additional observations from a re-analysis of the deposited data

Results flagged for a closer look

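The leading genes were looked up in a library outside the comparison, the mixture of RNA from multiple tissues, breeds and ages. Of the 95 leading Ensembl genes, 89 (93.7%) had at least 3 reads there, a share slightly under the 97.0% of all 15252 genes and thus no result about them, with a median of 1.78 RPKM. In the mixture of longissimus dorsi samples 52 (54.7%) of the 95 had at least 3 reads, beside 90.1% of all genes. The genes were chosen for being lower in this muscle at day 240 among other organs, so this share followed from their choice and is no control for the tissue mixture. Of the 29 leading lncRNAs, 22 (75.9%) had at least 3 reads in the tissue mixture, beside 55.8% of all 3346. In the mixture of muscle samples 8 (27.6%) did, beside 41.3% of all. The labels do not say which tissues the mixture held. SPIC was at 11.9 RPKM in it, GPR82 at 8.63, TLX1 at 2.71 and MS4A1 at 1.99, all under their levels in spleen, whereas in the muscle mixture these 4 genes were at most 0.261. Other leading genes were not low in the muscle mixture. There CHODL was at 13.9 RPKM, above its 4.69 in spleen, and MSC at 2.90 against 4.64 in spleen. In muscle at day 0 and day 30, 25 and 22 of the 95 genes had at least 3 reads.

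All 9 measured erythroid genes had a higher RPKM in the tissue mixture than in spleen, as did 84.4% of all tested Ensembl genes. HBM was at 224 RPKM in the tissue mixture against 3.05 in spleen, HBB at 3577 against 52.7 and ALAS2 at 96.4 against 2.96.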

How the results depend on the processing

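No paired analysis was possible because there was 1 library per organ. In the main setting 95 Ensembl genes led and 24 were lowest by 4-fold, 1056 were above and 928 below the median, the lncRNA counts were 29, 1, 210 and 97 in the same order, and 71 listed genes were above the median. With a pseudocount of 1 these 9 counts became 35, 1, 416, 128, 3, 0, 22, 2 and 35, as low values count for less. A pseudocount of 0.01 gave 133 genes lowest and 1914 below the median, and for lncRNAs 22 lowest, 357 above and 392 below the median. With the filter at 0.1 RPKM, and equally with no filter, 53 lncRNAs led and 362 were above the median. With the filter at 5 RPKM, 47 genes led and 573 were above the median, 4 lncRNAs led, 38 were above and 34 below the median, and 37 listed genes were above it. At 2-fold the counts of genes were 305, 170, 2318 and 3041 and of lncRNAs 64, 12, 408 and 355. At 8-fold they were 35, 3, 529 and 269, and for lncRNAs 10 led, 112 were above and 22 below the median. RPKM scaled to the same total gave 218 leading genes, 1942 above and 571 below the median, 85 leading lncRNAs and 435 above the median. Scaling by the median ratio gave 179 leading genes, 45 leading and 2 lowest lncRNAs, and 91 of the 95 leading genes were shared. RPKM over counted reads, chosen after seeing the data, gave 223 leading genes, 1794 above and 583 below the median, 75 leading lncRNAs and 402 above the median. Without lung 296 genes led, without testis and ovary 40 genes were lowest and 44 lncRNAs led, and with muscle at day 0 and day 30 added 15 genes were lowest. Under both total scalings spleen had the largest factor of all organs, so that all 95 leading genes still led by construction. Apart from the pseudocounts, filters and folds, the cause of these shifts was not tested.

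Genes higher than the median made up 53.2% of the calls in either direction, 77.3% with RPKM scaled to the same total, 75.5% over counted reads and 61.5% with the median ratio. The other 70 values of these results moved by at most 1.5 times, and so did 175 counts of single lists, whereas 25 moved further. The planned search for motif letters in promoters was not run. Precision rests on 4219511 counted reads in spleen, and differences between animals could not be measured.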

Other observations

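The remaining leading genes with a symbol were under 5 RPKM in spleen and belonged to no list. Of the surface molecules, CD1B, which presents lipids to T cells, was at 4.48 RPKM in spleen and ranged from 0.0268 to 0.837 in the others, highest in testis. SIRPB2, a signal regulatory protein, was at 2.29 against at most 0.169 in ovary, and CHODL (chondrolectin), a C-type lectin, at 4.69 against 0.943 in lung. HSH2D, an adaptor of haematopoietic cells, was at 2.37 against 0.516 in lung, and RAB37, a GTPase of secretory granules, at 4.62 against 1.07 in lung. Lung was the next organ for these last 3.

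The other 4 have roles outside the immune system as well. EPHA5, an ephrin receptor of neurons, was at 2.46 RPKM from 309 reads, with 0.494 in ovary and 0.479 in muscle. CABP5, a calcium-binding protein of retina, was at 2.63 RPKM from 50 reads and in the other organs was above 0 in adipose tissue alone (0.457). TRPM2, a calcium channel of phagocytes and neurons, was at 1.01 against 0.163 in ovary, and ELL3, an elongation factor of B cells and testis, at 1.33 against 0.253 in heart. TRPM2, at 1.01 RPKM, was the lowest of the 95 leading genes.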
